A study of Homo sapiens with 20 samples.

Results

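Of 2328 sites at which MYC summits were called in PC-3 cells, 555 (23.8%) lay more than 1 kb from every annotated start of transcription (TSS) of protein-coding genes, and these distal MYC sites are described here. Sites were made by pooling the summits of 6 MYC chromatin immunoprecipitation sequencing (ChIP-seq) libraries on chromosomes 1 to 22 and X and joining those 250 bp or less apart, and the distance to a TSS was measured from the median summit of the site in GENCODE release 44 (GRCh38). The other 1773 sites, within 1 kb of a coding TSS, are called promoter sites. Close to the boundary, 9 sites lay 1001 to 1100 bp and 10 sites 900 to 1000 bp from a coding TSS.

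PC-3 is an established prostate cancer cell line. Wild-type cells (WT) were compared with cells carrying a knockout of the kinase gene SLK (SLK-KO), which the labels also call PSD10, a name they do not explain; whether these cells are a single clone is not given in the sources used here. Each genotype had 3 MYC and 3 POL2 (RNA polymerase II) libraries, from cells in standard culture, cross-linked with formaldehyde, while the IgG and Input controls are not analysed here. The labels call the replicates of a genotype biological, without saying whether they came from separate cultures, so p-values measure the spread between these libraries.

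MYC binds DNA together with its partner MAX, at the E-box CACGTG and, less tightly, at variants of it. Most MYC is found at active promoters, and in cells with much MYC it also appears at enhancers, which are regulatory sequences away from genes' start sites. Promoters of long non-coding RNA (lncRNA) genes also lie outside the set of coding promoters, among them the SNHG genes, which carry small nucleolar RNAs in their introns.

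The sequences below are the GRCh38 plus strand, 5′ to 3′, around the median summit of 9 distal sites, chosen to show both E-box forms that were frequent at these sites. Capitals mark CACGTG, or CATGTG in either orientation (CACATG on the reverse strand). The first site was the best ranked of all distal sites found in the 6 libraries, and it held a pair of CACGTG motifs. It lay 162 bp from the TSS of the lncRNA gene ENSG00000286874 (chr7:4642036-4642136).
ENSG00000286874 site: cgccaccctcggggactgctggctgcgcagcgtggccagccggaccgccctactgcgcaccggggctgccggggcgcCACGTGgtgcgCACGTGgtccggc
The second lay 86 bp from the TSS of the lncRNA gene LINC01730 and held both forms (chr20:3808221-3808321).
LINC01730 site: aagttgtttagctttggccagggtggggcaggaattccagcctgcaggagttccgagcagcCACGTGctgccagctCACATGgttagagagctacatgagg
The third lay 34 bp from the TSS of MIR17HG, the host transcript of a microRNA cluster, and held CATGTG and no CACGTG within 100 bp of its summit (chr13:91349102-91349202).
MIR17HG site: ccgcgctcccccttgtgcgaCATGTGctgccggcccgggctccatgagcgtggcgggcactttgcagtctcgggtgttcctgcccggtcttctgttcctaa
The next, at the TSS of SNHG7, was found in 3 SLK-KO and 0 WT libraries (chr9:136728243-136728343).
SNHG7 site: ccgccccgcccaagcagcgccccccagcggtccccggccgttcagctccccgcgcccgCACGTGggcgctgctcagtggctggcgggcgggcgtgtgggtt
The 5 that follow were 14943 to 23211 bp from the TSS of any GENCODE gene and are named by the nearest coding gene. A tRNA gene, from a separate annotation, lay 520 bp from the median summit of the GNGT2 site. CACGTG lay at the GNGT2 (chr17:49191994-49192094) and NRP1 (chr10:33134151-33134251) sites. CATGTG lay at the ASAH2 (chr10:50224506-50224606), C20orf85 (chr20:58127641-58127741) and ANKRD30A (chr10:36539127-36539227) sites.
GNGT2 site: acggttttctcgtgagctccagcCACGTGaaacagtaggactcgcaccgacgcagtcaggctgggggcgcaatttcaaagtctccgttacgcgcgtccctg
NRP1 site: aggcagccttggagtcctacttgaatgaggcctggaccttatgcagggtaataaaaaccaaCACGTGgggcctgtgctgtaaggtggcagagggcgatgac
ASAH2 site: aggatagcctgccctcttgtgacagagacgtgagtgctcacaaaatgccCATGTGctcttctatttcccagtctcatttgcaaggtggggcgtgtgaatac
C20orf85 site: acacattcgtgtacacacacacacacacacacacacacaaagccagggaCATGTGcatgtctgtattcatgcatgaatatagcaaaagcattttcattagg
ANKRD30A site: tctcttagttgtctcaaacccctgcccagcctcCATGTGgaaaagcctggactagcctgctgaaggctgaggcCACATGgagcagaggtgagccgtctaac

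The files list the summits of called peaks with a score and hold no reads, so the depth of sequencing is not known, and the length of a list and the depth or cleanness of its library cannot be told apart. On the chromosomes used, the MYC lists held 352, 192 and 261 summits in WT and 1212, 1413 and 976 in SLK-KO. The score, taken to be −log10 of a q-value within 1 library, was used only to rank summits, rank 1 being the best. POL2 summits lay within 1 kb of a TSS of the epithelial genes KRT8, KRT18 and KRT19 in 6 of 6 POL2 libraries, of EPCAM in 4 and of CDH1 in 1. The prostate luminal genes KLK3, KLK2 and FOLH1 and the blood genes PTPRC and CD3E had one in 0 libraries, while the luminal gene TMPRSS2 and the mesenchymal gene VIM had one in 6 and the mesenchymal gene ZEB1 in 5. SLK itself had one in 2 WT and 3 SLK-KO libraries, out of 3 each; a summit list does not show whether the protein was lost.

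Distal MYC sites lay mostly inside introns of coding genes or between genes. An intron of a coding gene held 201 of the 555 (36.2%), and 198 (35.7%) were in no annotated gene of any type. Introns of non-coding genes held 64 (11.5%) and exons of non-coding genes 57 (10.3%). Coding sequence held 16 sites and untranslated or other exons of coding genes 19. The median distance to the nearest coding TSS was 14571 bp, with quartiles of 4161 and 42614 bp and a maximum of 954542 bp. By distance, 156 sites (28.1%) were 1 to 5 kb away, 280 (50.5%) 5 to 50 kb away, and 119 (21.4%) farther. Few of the sites were clustered, since 29 (5.23%) had another distal MYC site within 1 kb and 65 (11.7%) within 10 kb. The 50-bp sequence at the summit occurred once in the genome for 549 sites (98.9%), so exact copies of it were rare. Repeats whose copies differ in sequence were not searched for.

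A TSS of a gene that is not protein-coding lay within 1 kb of 127 distal sites (22.9%), and within 250 bp of 83. Of the 127, 112 belonged to lncRNA genes, and their median distance to that TSS was 135 bp. A tRNA gene, transcribed by another polymerase, lay within 1 kb of 7 sites, the GNGT2 site printed above among them. The distal set was therefore a mixture of promoters of non-coding genes and of sites away from any annotated start.

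Every one of the 9 distal sites found in all 6 MYC libraries lay at the TSS of a lncRNA gene, 1 to 290 bp from it. These 9 were 1.62% of distal sites. Of promoter sites 71 (4.00%), and of all MYC sites 3.44%, were found in all 6. The ENSG00000286874 site (GRCh38 chromosome 7, 4642040 to 4642099, 40209 bp from the nearest coding TSS, that of FOXK1) ranked 9, 9 and 5 in the WT libraries and 5, 5 and 4 in the SLK-KO libraries. Ranks of lists of different length are given as a description and were not compared between the genotypes.

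Genes of the SNHG family made up 4 of these 9. The SNHG15 site (chromosome 7, 44986439 to 44986569) ranked 11, 21 and 21 in WT and 11, 78 and 16 in SLK-KO, and the sequence within 100 bp held a pair of CACGTG motifs. The SNHG17 site (chromosome 20, 38435136 to 38435267) ranked 36, 15 and 59 in WT and 22, 26 and 81 in SLK-KO. The SNHG16 site (chromosome 17, 76557808 to 76557828) ranked 131, 26 and 135 in WT and 125, 34 and 58 in SLK-KO. For these 3 genes a POL2 summit lay within 250 bp in 6 of 6 POL2 libraries. The SNHG26 site (chromosome 7, 22854370 to 22854413) ranked 150, 123 and 227 in WT and 282, 136 and 46 in SLK-KO, with CACGTG within 100 bp and POL2 in 3 of 6 libraries.

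The other lncRNA genes of this group include 2 hosts of microRNAs. The MIR17HG site (chromosome 13, 91349118 to 91349293), printed above, ranked 34, 89 and 36 in WT and 13, 69 and 12 in SLK-KO. It was the only one of the 9 with no POL2 summit within 250 bp in any library, and the nearest was 367 bp away. The MIRLET7A1HG site (chromosome 9, 94166454 to 94166686), at the host transcript of a let-7 microRNA, ranked 98, 108 and 55 in WT and 60, 234 and 169 in SLK-KO. The LINC02960 site (chromosome 14, 90383284 to 90383459) ranked 20, 18 and 10 in WT and 67, 85 and 51 in SLK-KO. The site at PVT1, a lncRNA gene neighbouring MYC (chromosome 8, 127794522 to 127794586, 1 bp from a PVT1 TSS and 55461 bp from a coding TSS, that of MYC), ranked 26, 50 and 73 in WT and 58, 96 and 125 in SLK-KO.

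**Figure D1:**
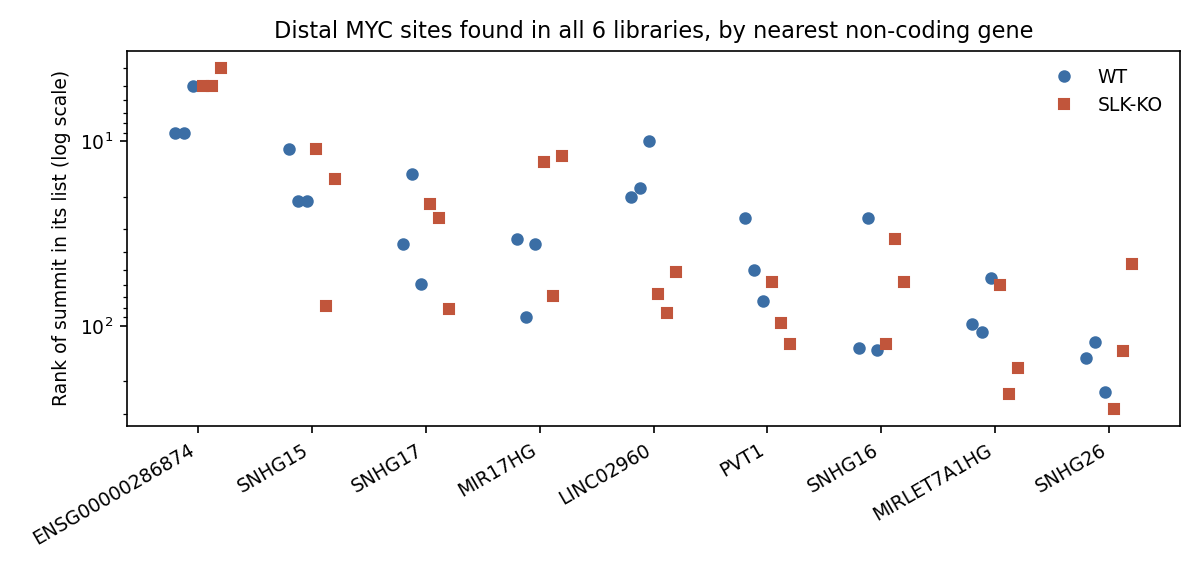
Rank of the summit in each of the 6 MYC lists (log scale, rank 1 best and upward) for the 9 distal sites found in all of them, with 3 WT (circles) and 3 SLK-KO (squares) libraries per site. The ENSG00000286874 site lies between rank 4 and 9 in every library, and the SNHG26 site between 46 and 282.

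Beyond these, 9 further distal sites at a non-coding TSS were in 4 or 5 libraries, 18 in all of the 40 sites found in at least 4 libraries. The LINC01730 site (chromosome 20, 3808258 to 3808285) lay 5502 bp from the TSS of CDC25B, a cell cycle phosphatase. It had no summit in the list of WT replicate 3, and ranked 59 and 161 in the other WT libraries and 49, 211 and 74 in SLK-KO.

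In a list of 48 non-coding genes, chiefly the SNHG family and lncRNA genes near MYC or hosting microRNAs, 43 were annotated under these names, and 22 of them (51.2%) had a MYC site within 1 kb of a TSS. For 15 (34.9%) a site was distal. Over all 18756 lncRNA genes the shares were 3.02% with any MYC site and 0.752% with a distal one. The list was chosen with earlier results of these data known, and the 18756 genes were taken with or without POL2. The shares are therefore a description and not a test of the list. The distal ones included SNHG3, SNHG6, SNHG11, SNHG21, MALAT1 and NEAT1, the last 2 being abundant nuclear lncRNAs. A WT library held a site at 8 of the 22 genes, and an SLK-KO library held one at all 22. Of all distal MYC sites 86.7%, and of promoter sites 75.2%, were in SLK-KO libraries only, so this split does not set the genes apart. Genes such as SNHG5, SNHG8, SNHG12 and DANCR had POL2 within 1 kb in 6 of 6 libraries and no MYC site.

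Most distal MYC sites were seen in a single library. That was so for 383 of 555 (69.0%), against 951 of 1773 promoter sites (53.6%). At least 2 WT libraries held 26 distal sites (4.68%), against 8.72% of all MYC sites and 9.98% of promoter sites. At least 2 SLK-KO libraries held 158 (28.5%), against 39.4% of all MYC sites and 42.9% of promoter sites. Thus in either genotype a smaller share of distal than of promoter sites was held by at least 2 libraries. The shares are of sites pooled over both genotypes, and 86.7% of distal and 75.2% of promoter sites were in SLK-KO libraries only. They therefore mix presence in a genotype with recurrence among its libraries. These shares were not tested, since sites are not replicates.

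The features of distal sites differed with the number of libraries that held them. A non-coding TSS lay within 1 kb of 20.6% of the 383 sites in 1 library, 23.9% of the 88 in 2, 20.5% of the 44 in 3, 27.3% of the 22 in 4, 3 of the 9 in 5 and 9 of the 9 in 6 libraries. CACGTG was within 100 bp of 26.1%, 28.4%, 36.4% and 45.5% of the sites in 1, 2, 3 and 4 libraries, then 7 of 9 and 3 of 9. Recurrent sites thus held CACGTG more often up to 5 libraries, and the 9 sites in all 6, all at lncRNA genes, held it at 3. The last 2 classes hold 9 sites each and are too few to rank.

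**Figure D2:**
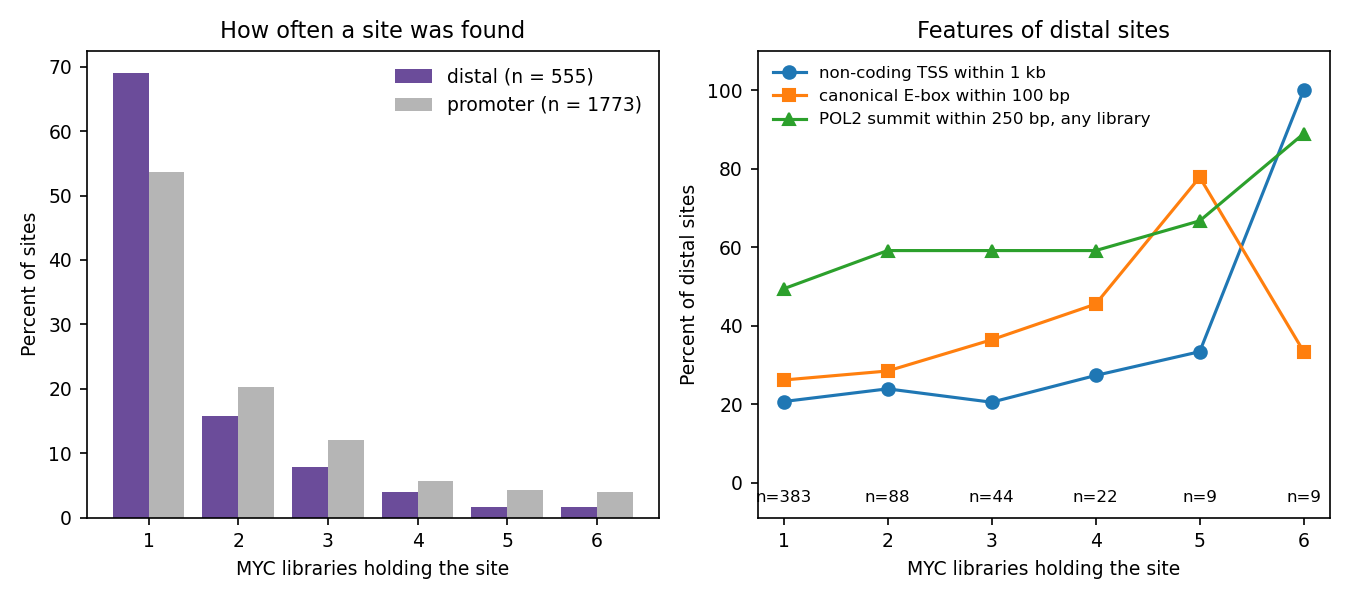
Left, percent of the 555 distal and of the 1773 promoter MYC sites by the number of MYC libraries that held them. Right, percent of distal sites with a non-coding TSS within 1 kb, a CACGTG E-box within 100 bp, or a POL2 summit within 250 bp in any library, by the same number, with the number of sites under each point; 69.0% of distal sites were in 1 library.

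CACGTG was found at similar shares of distal and promoter MYC sites, and was rare at distal POL2 sites. Over all sites it lay within 100 bp of the median summit of 161 distal sites (29.0%), 497 promoter sites (28.0%) and 489 of the 18897 POL2 sites more than 1 kb from a coding TSS (2.59%). At positions 2 kb from the distal MYC sites the share was 3.06%, and in 201-bp windows of the genome away from coding promoters 1.80%. In the single libraries the distal share was 49.0%, 56.0% and 36.1% in WT and 31.0%, 29.1% and 35.3% in SLK-KO. The Wilson 95% intervals, which cover counting error only, ran from 22.5% to 73.3% over the WT libraries and from 24.3% to 42.5% over the SLK-KO libraries. The distal share exceeded the promoter share of the same library in 3 of 6 libraries, with a mean difference of 1.46 ± 6.90 percentage points (SD, n = 6; exact two-sided sign-flip test, p = 0.625, adjusted 0.625), so a difference was not shown. The libraries share part of their sites, so such differences are not fully independent of each other. Against the distal POL2 sites of the same-numbered library the difference was 36.7 ± 10.5 points, with MYC higher in 6 of 6 libraries (exact sign-flip test, p = 0.03125, the smallest 6 libraries allow, adjusted 0.0625 over 6 tests), above the 0.05 threshold after adjustment.

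The motif lay close to the summit. Where CACGTG was present, the nearest copy was a median of 26.5 bp from the summit at distal MYC sites and 24.5 bp at promoter sites, against 52.5 bp at distal POL2 sites. Of the bases beside the motif, some were alike in the 2 kinds of MYC site and some were not. CCACGTGC, read on either strand, made up 31.0% of 171 CACGTG copies at distal sites and 29.5% of 550 at promoter sites, against 13.4% of all copies in the genome. TCACGTGA made up 0% and 2.73%, against 5.43% in the genome. CCACGTGG made up 17.0% at distal and 24.9% at promoter sites, ACACGTGG 18.7% and 12.9%, and GCACGTGC 12.3% and 5.45%, with no test of these differences.

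The variant E-box CATGTG and the AP-1 motif were found at distal MYC sites more often than at promoter sites in every library. The AP-1 motif, TGANTCA, is bound by dimers of JUN and FOS proteins and is found at many enhancers. CATGTG, searched on both strands, was within 100 bp of 199 distal sites (35.9%), 196 promoter sites (11.1%), 11.7% of distal POL2 sites and 12.7% of genome windows away from coding promoters. By library, the distal share was 24.5%, 28.0% and 30.6% in WT and 38.0%, 36.7% and 37.5% in SLK-KO, and the promoter share of each library was lower, between 12.5% and 18.6%. The mean difference from promoter sites was 17.5 ± 7.99 points, and that from distal POL2 sites 21.7 ± 5.37 points (SD, n = 6; exact two-sided sign-flip tests, both p = 0.03125, adjusted 0.0625 over the 10 motifs).

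TGANTCA was within 100 bp of 137 distal MYC sites (24.7%), 56 promoter sites (3.16%), 10.5% of distal POL2 sites and 6.25% of genome windows. By library, the distal MYC share was 16.3%, 12% and 19.4% in WT and 25.5%, 24.3% and 23.4% in SLK-KO. The shares at distal POL2 sites of the same-numbered libraries were 10.3%, 9.38% and 10.3% in WT and 12.2%, 12.3% and 12.03% in SLK-KO. Distal MYC sites exceeded promoter sites by 18.1 ± 4.86 points and distal POL2 sites by 9.05 ± 4.05 points, in 6 of 6 libraries each (SD, n = 6; exact two-sided sign-flip tests, both p = 0.03125, adjusted 0.0625). AP-1 motifs lay farther from the summit than E-boxes, at a median of 42 bp, against 27.5 bp for CATGTG.

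**Figure D3:**
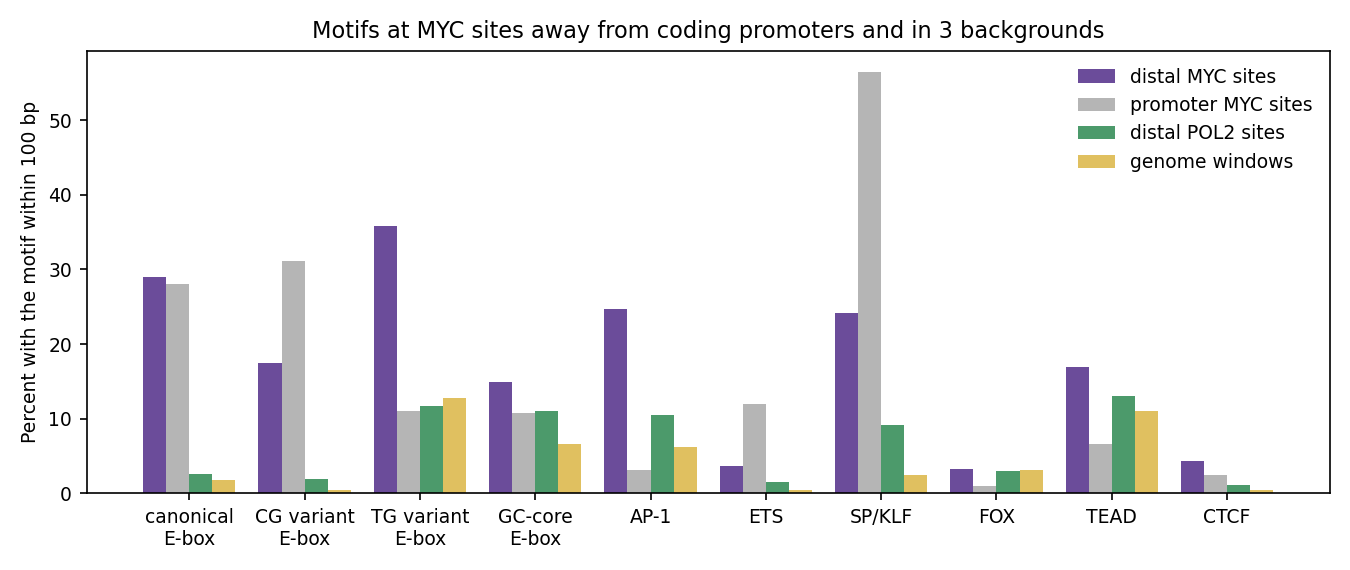
Percent of sites with each of 10 motifs within 100 bp (both strands) at 555 distal MYC, 1773 promoter MYC and 18897 distal POL2 sites and in 1385491 genome windows of 201 bp away from coding promoters. The canonical E-box is CACGTG, the CG variant CACGCG, the TG variant CATGTG and the GC-core form CAGCTG; the TG variant stands at 35.9% of distal MYC sites and 11.1% of promoter sites.

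GC content differed between the kinds of site and moves with motif shares. Mean GC within 100 bp of the summit was 60.2 ± 2.49% at distal and 68.5 ± 0.642% at promoter sites (SD, n = 6), lower at distal sites in 6 of 6 libraries, a mean difference of -8.29 ± 2.13 points (exact sign-flip test, p = 0.03125, adjusted 0.0625). For CATGTG and TGANTCA the order of distal and promoter sites was the same in each of 4 bins of GC. Among sites of 45 to 55% GC, CATGTG was at 69 of 144 distal (47.9%) and 21 of 119 promoter sites (17.6%), and TGANTCA at 38.2% and 12.6%. Among sites of 65% GC and over, CATGTG was at 13.99% of 143 distal and 8.87% of 1195 promoter sites, and TGANTCA at 7.69% and 2.01%. For distal POL2 sites of 45 to 55% GC the shares were 12.7% and 11.6%. The sites under 45% GC included 15 promoter sites only.

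The 2 E-box forms tended to lie at different distal sites. CATGTG was present at 19.3% of distal sites with CACGTG and at 42.6% of those without. One or the other was present at 329 distal sites (59.3%), against 37.0% of promoter sites and 13.9% of distal POL2 sites. Of distal sites with CATGTG 35.2% also held TGANTCA, against 18.8% of those without CATGTG. These are counts over pooled sites, with no test, and they were not taken within bins of GC. The 2 forms differed with GC, since CATGTG was at 52.5% of distal sites under 45% GC and 13.99% of those of 65% and over. For CACGTG these shares were 23.75% and 35.0%. The part of GC in the split was not tested.

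Motifs of promoter-binding factors were less frequent at distal than at promoter MYC sites. GGGCGG, bound by SP and KLF factors, was at 24.1% of distal and 56.5% of promoter sites, and lower at distal sites in 6 of 6 libraries, a mean difference of -24.7 ± 9.43 points (SD, n = 6; exact sign-flip test, p = 0.03125, adjusted 0.0625). CCGGAAG, bound by ETS factors, was at 3.60% and 12.01%, lower in 6 of 6 libraries, a mean difference of -11.1 ± 3.13 points (exact sign-flip test, p = 0.03125, adjusted 0.0625). Distal MYC sites held GGGCGG more often than distal POL2 sites (9.13%) in 6 of 6 libraries, by 21.1 ± 8.21 points (exact sign-flip test, p = 0.03125, adjusted 0.0625). For CCGGAAG (1.46% of distal POL2 sites) this was so in 5 of 6 libraries (exact sign-flip test, p = 0.25, adjusted 0.352). Neither motif was compared within bins of GC. The variant E-box CACGCG, also searched on both strands, was at 17.5% of distal and 31.1% of promoter sites, lower in 5 of 6 libraries (exact sign-flip test, p = 0.09375, adjusted 0.156), and at 1.92% of distal POL2 sites. Distal sites near a non-coding TSS stood between promoter sites and all distal sites for GGGCGG (39.4%), CATGTG (26.8%) and TGANTCA (16.5%), and at the promoter share for CACGCG (31.5%). Distal sites with no such TSS had GGGCGG at 19.6%, CATGTG at 38.6%, TGANTCA at 27.1% and CACGCG at 13.3%. GGAATG, bound by TEAD factors, was at 16.9% of distal and 6.54% of promoter sites, higher in 6 of 6 libraries by 8.92 ± 3.38 points (exact sign-flip test, p = 0.03125, adjusted 0.0625). Against distal POL2 sites (13.03%) it was higher in 4 of 6 libraries (exact sign-flip test, p = 0.28125, adjusted 0.352). For the other motifs searched no difference was shown. The mean share over 6 libraries was 12.3% at distal and 10.7% at promoter sites for CAGCTG, 1.92% and 3.27% for the CTCF motif, and 1.45% and 1.30% for TGTTTAC, bound by FOX factors. In each case the difference had both signs among libraries, and the exact sign-flip tests gave p = 0.46875, 0.28125 and 0.875 (adjusted 0.586, 0.402 and 0.875). For the CTCF motif and TGTTTAC the sign followed the genotype. Distal sites were above promoter sites in every SLK-KO library and below them in every WT library. Over pooled sites the CTCF motif was at 4.32% of distal and 2.48% of promoter sites, and TGTTTAC at 3.24% and 1.02%. The CTCF motif and TGTTTAC were at 0 distal sites in each of the 3 WT libraries.

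**Figure D4:**
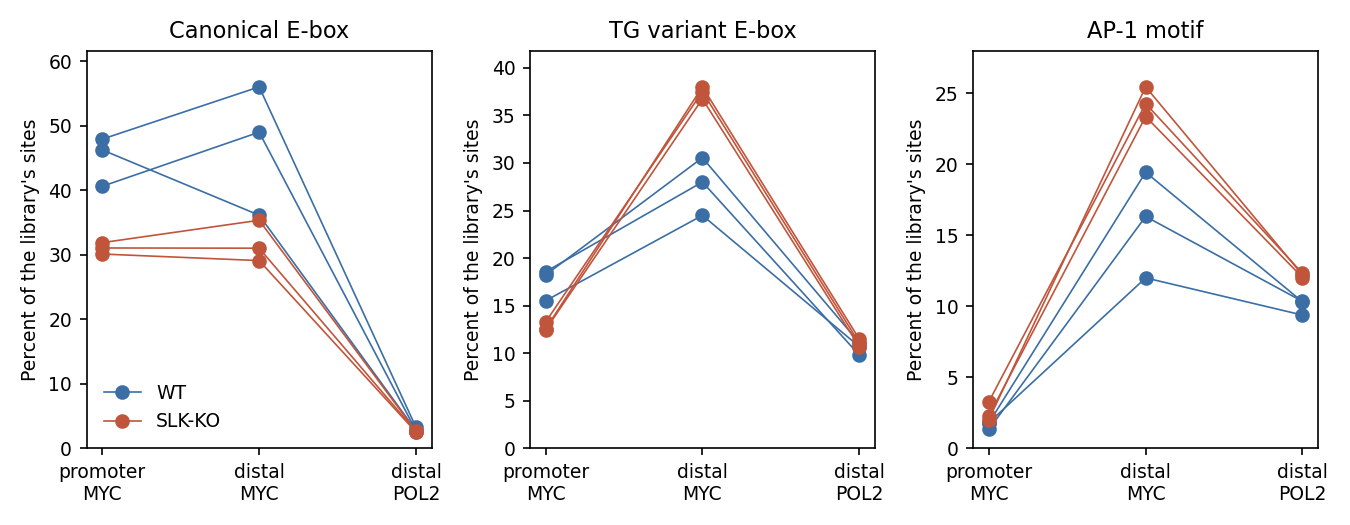
Percent of the sites of each library with the canonical E-box (CACGTG), the TG variant (CATGTG) and the AP-1 motif (TGANTCA) within 100 bp, at promoter MYC, distal MYC and distal POL2 sites; each line joins the values of 1 MYC library and the same-numbered POL2 library. For the TG variant and AP-1 the middle point is the highest of every line, and for the canonical E-box distal and promoter MYC sites overlap.

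A POL2 summit lay within 250 bp of 294 distal MYC sites (53.0%) when any of the 6 POL2 libraries was counted, against 4.14% and 3.78% with the positions moved 10 kb to either side and 73.7% of promoter sites. All 6 POL2 libraries held one at 40 distal sites. In the same-numbered library, POL2 was at 49.0%, 28.0% and 33.3% of distal sites in WT and at 42.1%, 37.4% and 40.2% in SLK-KO. The share was lower at distal than at promoter sites of the same library in 6 of 6 libraries, a mean difference of -14.03 ± 3.09 points (SD, n = 6; exact sign-flip test, p = 0.03125, adjusted 0.0625). Where no POL2 summit was within 250 bp, the nearest in any library was a median of 12150 bp away.

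Split by annotation and POL2, 206 distal sites (37.1%) had POL2 and no non-coding TSS, 88 (15.9%) had both, 39 (7.03%) had a TSS alone, and 222 had neither. In the last group 79 sites (35.6%) held CACGTG and 67 (30.2%) TGANTCA, and 53 (23.9%) were found in at least 2 libraries. The group with POL2 and no TSS held CACGTG at 22.8% and TGANTCA at 23.8%, and 34.5% were in at least 2 libraries. Within libraries, distal sites with and without POL2 differed in their CACGTG share by -2.23 ± 6.34 points (SD, n = 6; exact sign-flip test, p = 0.4375, adjusted 0.625), less than the spread, and the sign depended on the window and list length.

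The sites farthest from any TSS among those in at least 4 libraries lay 14943 to 17412 bp from the nearest start. The NRP1 site (chromosome 10, 33134200 to 33134226) lay 51454 bp from the nearest coding TSS, that of a co-receptor for semaphorins and VEGF. It had no summit in the lists of 2 WT libraries, and ranked 95 in WT replicate 2 and 29, 18 and 153 in SLK-KO. It had POL2 within 250 bp in 4 of 6 libraries. The site nearest to FASLG, which encodes a death-receptor ligand (chromosome 1, 172643112 to 172643208), ranked 243 in WT replicate 3 and 288, 282 and 286 in SLK-KO, with no POL2 summit closer than 3609 bp. The site between genes nearest to ANKRD30A (chromosome 10, 36539117 to 36539187) was 586421 bp from a coding TSS and ranked 129 and 148 in 2 WT libraries and 409, 576 and 636 in SLK-KO. A pair of chromosome 8 sites, nearest to DENND3 and YWHAZ, completed these 5.

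More distal MYC sites were called in SLK-KO than in WT. There were 49, 25 and 36 in the WT libraries and 271, 313 and 184 in the SLK-KO libraries, and the ranges did not overlap. On the log2 scale the means differed by 2.82 (exact two-sided permutation test over 20 relabellings, p = 0.1, the smallest that 3 against 3 libraries allow, adjusted 0.15 over 6 tests), so no comparison of genotypes could pass 0.05. Distal sites made up 13.9%, 13.0% and 13.8% of the sites of the WT libraries and 22.4%, 22.2% and 18.9% of those of the SLK-KO libraries, a difference of 7.55 points without overlap (exact permutation p = 0.1, adjusted 0.15). When every list was reduced to its 201 best-scored summits, the number of distal sites was 26.7 ± 1.53 in WT against 37 ± 3.46 in SLK-KO, and the share 13.7 ± 0.633% against 18.7 ± 1.73% (SD, n = 3 each). The number then differed by 0.47 on the log2 scale and the share by 5.05 points, and the ranges still did not overlap (exact permutation p = 0.1, adjusted 0.3).

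By presence, 481 distal sites (86.7%) were found only in SLK-KO libraries, 12 only in WT libraries and 62 (11.2%) in both. For promoter sites these numbers were 1333 (75.2%), 54 and 386 (21.8%). All 3 SLK-KO and 0 WT libraries held 35 distal sites (6.31%), against 7.00% of all MYC sites, so the distal sites did not stand out. The reverse, 3 WT and 0 SLK-KO libraries, was found at 0 distal sites and 0.00% of all MYC sites. In equally long lists the numbers of distal sites were 3 for SLK-KO alone and 0 for the reverse. The shares over all MYC sites were not counted in those lists, so these numbers do not compare distal sites with the others.

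The best-ranked of the 35 sites were as follows. The site 1012 bp from the TSS of FZD8, which encodes a Wnt receptor (chromosome 10, 35643297 to 35643321), ranked 71, 43 and 172, and it lies just beyond the 1-kb boundary. The SNHG7 site (chromosome 9, 136728282 to 136728302, 109 bp from the TSS) ranked 61, 101 and 115, with POL2 in 6 of 6 libraries, 3 of them WT. The ABCB5 site (chromosome 7, 20596910 to 20596934, between genes, 18756 bp from the TSS of this transporter gene) ranked 72, 105 and 102, with no POL2 summit closer than 211266 bp.

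Introns of coding genes held 3 of the next sites. The ASAH2 site (chromosome 10, 50224539 to 50224564, in the gene of a ceramidase) ranked 83, 621 and 163. The VCAN site (chromosome 5, 83473928 to 83474011, in the gene of a matrix proteoglycan) ranked 974, 163 and 101. The NEK6 site (chromosome 9, 124267332 to 124267362, in the gene of a mitotic kinase) ranked 178, 228 and 66. The ranks of ASAH2 and VCAN thus varied widely among SLK-KO libraries, from 83 to 621 and from 101 to 974. Between genes, the GNGT2 site (chromosome 17, 49192010 to 49192049) ranked 112, 187 and 525 and had POL2 in 2 SLK-KO and 0 WT libraries. This is the site with a tRNA gene 520 bp away. The C20orf85 site (chromosome 20, 58127683 to 58127723) ranked 182, 192 and 216 and had no POL2 summit closer than 109991 bp.

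The make-up of distal sites also differed between the genotypes, and some of these differences were smaller in lists of equal length. Of the distal sites of WT libraries 47.0 ± 10.1% held CACGTG, and of those of SLK-KO libraries 31.8 ± 3.203% (SD, n = 3 each). SLK-KO minus WT was -15.2 points for this motif (exact permutation p = 0.1, adjusted 0.15). A non-coding TSS was within 1 kb of 42.9%, 48.0% and 33.3% of WT and 24.0%, 25.2% and 28.3% of SLK-KO distal sites, -15.6 points (exact permutation p = 0.1, adjusted 0.15). Neither range overlapped. In lists of 201 summits both differences were smaller and the ranges overlapped, at -7.85 points for CACGTG (50.0 ± 8.39% and 42.1 ± 4.64%) and -7.48 points for the non-coding TSS (46.2 ± 8.41% and 38.7 ± 1.45%). With all summits, promoter sites held CACGTG at 40.6 to 47.9% in the WT and 30.1 to 31.9% in the SLK-KO libraries, also without overlap. The lower CACGTG share in SLK-KO was therefore not particular to distal sites.

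CATGTG and TGANTCA went the other way. CATGTG was at 27.7 ± 3.05% of distal sites in WT and 37.4 ± 0.637% in SLK-KO, a difference of 9.73 points, and TGANTCA at 15.9 ± 3.74% and 24.4 ± 1.05%, a difference of 8.45 points (SD, n = 3 each). The ranges did not overlap for either motif (exact permutation, both p = 0.1, adjusted 0.143 over the 10 motifs). In lists of 201 summits the differences were 17.2 points for CATGTG (25.2 ± 6.38% and 42.4 ± 5.77%) and 7.92 points for TGANTCA (16.1 ± 3.59% and 24.0 ± 4.75%), again without overlap (exact permutation, both p = 0.1, adjusted 0.333). Mean GC of distal sites moved with the motif shares, at 61.2 to 64.1% in WT and 57.9 to 58.6% in SLK-KO, and in lists of 201 summits at 61.5 to 64.1% and 58.1 to 61.6%, which overlap. Its part in the motif difference was not tested. The WT shares rest on 3 to 12 sites with the motif per library. Over sites more than 1 kb from the TSS of any gene, a setting chosen after seeing the data, the difference for TGANTCA was 2.89 points (exact permutation p = 0.4, adjusted 0.667).

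No difference between the genotypes was shown in the share of intergenic sites, and the POL2 comparison depended on which POL2 lists were counted. Sites between genes made up 34.4 ± 4.96% in WT and 35.4 ± 4.72% in SLK-KO (exact permutation p = 1, adjusted 1). POL2 in the same-numbered library was at 36.8 ± 10.9% and 39.9 ± 2.36% of distal sites, a difference of 3.12 points within the WT spread (exact permutation p = 0.7, adjusted 0.84). When a summit of any POL2 library counted, the share was 63.9 to 72% in WT and 54.3 to 57.6% in SLK-KO, -11.3 points without overlap (exact permutation p = 0.1, adjusted 0.12). With equally long POL2 lists it was 24.5 to 28% and 17.4 to 18.5%, -7.71 points, again without overlap (exact permutation p = 0.1, adjusted 0.12). With MYC lists of 201 summits it was 12.9 points higher in SLK-KO, with overlap (exact permutation p = 0.3, adjusted 0.36). Without WT replicate 2, whose POL2 list was the shortest, the difference was -0.142 points.

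**Figure D5:**
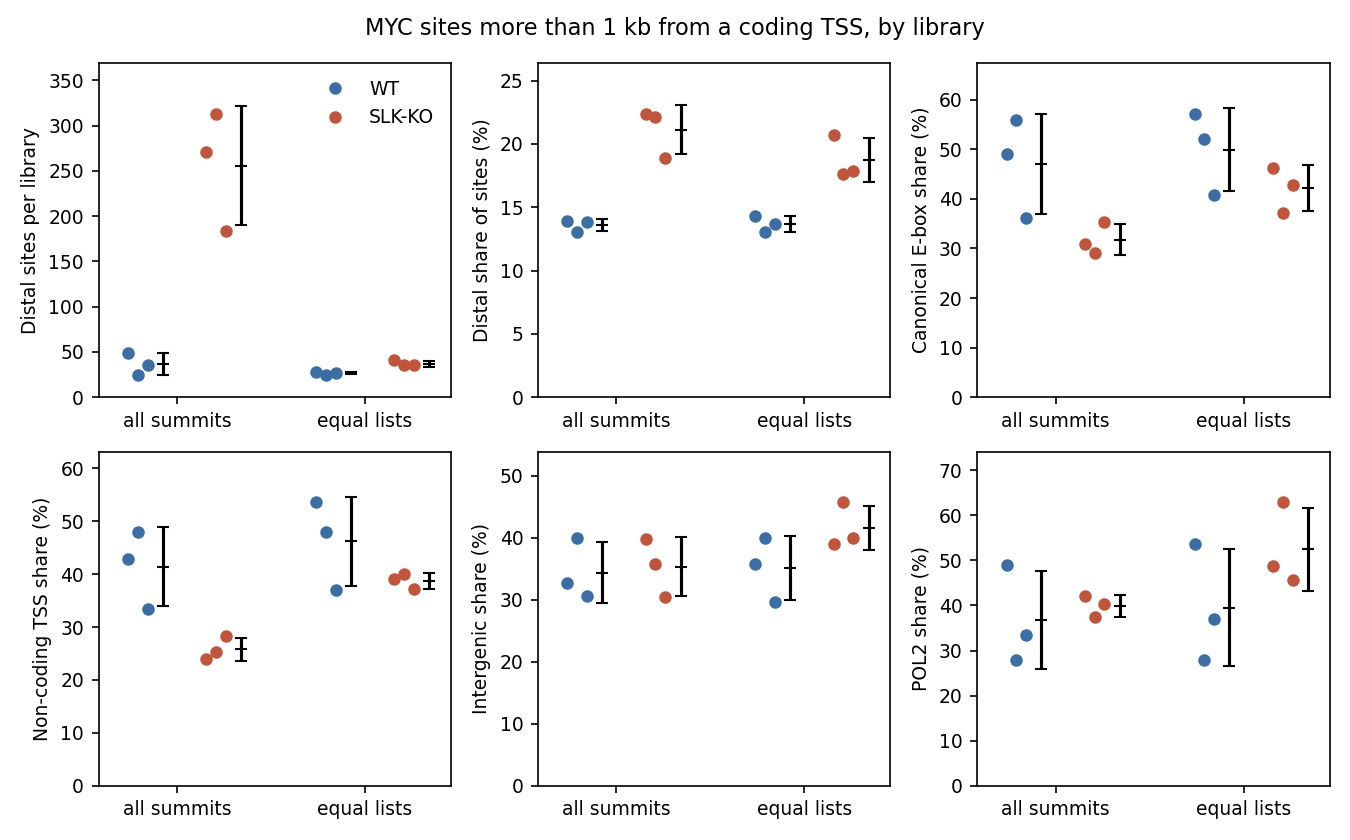
Number of distal MYC sites, their share of a library's sites, and the shares with a canonical E-box (CACGTG), a non-coding TSS within 1 kb, a place between genes, or a POL2 summit in the same-numbered library, for 3 WT and 3 SLK-KO libraries (points; bars are mean ± SD). Values are given for all summits and for lists of the best-scored 201 summits; the distal share stays without overlap in both (13.6 and 21.1%, then 13.7 and 18.7%), while the E-box and non-coding TSS shares overlap in equal lists.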

How the data were processed

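ChIP-seq summit lists of 12 libraries were used, 3 per antibody and genotype. Per the submitters' processing notes, the tools included Trim Galore 0.6.7, BWA 0.7.18-r1243, Picard 3.2.0 and MACS3 3.0.1, within nf-core/chipseq 2.1.0, with GRCh38.p14 as the build. Per the file contents, the deposited score is taken as −log10 of a q-value, since every list's lowest score lay just above 1.30103. The control used for peak calling is not given in the sources used here, nor is read depth. Values shown as shares of sites, ranks, distances and motifs were computed here from GENCODE release 44 and the GRCh38 sequence, both strands, overlapping matches counted; genome windows were every 10th 201-bp tile. The library was the unit. Genotypes were compared by exact permutation and kinds of site by exact sign flips (64), two-sided, with Benjamini-Hochberg adjustment over 6 tests per family or 10 motifs. Sites named were up to 15 shared by all 6 libraries, 8 seen in every SLK-KO and no WT library, 8 at non-coding TSSs and 5 farthest from any TSS, by best median rank or by distance. The members, lists and settings were chosen with earlier results of these data known, and the motif tests per library were added after the pooled shares were seen. Alternatives covered chaining, TSS distance and set, score, list length, windows and single libraries. Replicate numbers did not pair the MYC libraries (presence at sites correlated at most at 0.0342). MYC and POL2 libraries of a genotype were matched by replicate number only, and this match was not checked. The scripts were tested on simulated lists. Software was samtools 1.23.1 and Python 3.11.15 with pysam 0.24.0, matplotlib 3.10.9, scipy 1.17.1, pandas 2.3.3 and numpy 2.4.6. Some items of the marker lists are not reported here.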

Additional observations from a re-analysis of the deposited data

Results flagged for a closer look

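The rank of distal sites relative to promoter sites pointed in opposite directions in the genotypes. The median rank percentile within a list (0 best) of distal minus promoter sites was -10.5 ± 8.12 in WT (SD, n = 3, from -19 to -2.82) and 4.45 ± 2.98 in SLK-KO (SD, n = 3, from 1.01 to 6.24). With all summits, distal sites thus ranked better than promoter sites in 3 of 3 WT libraries and worse in 3 of 3 SLK-KO libraries. The difference between the genotypes was not tested. Over sites more than 1 kb from the TSS of any gene, a setting chosen after seeing the data, the WT direction was not kept. Distal sites then ranked worse in WT replicates 1 (56.7 against 49.3) and 3 (55.6 against 49.6), and better in WT replicate 2 (35 against 52.5). In SLK-KO the values were 55.6 against 48.6, 55.5 against 49.1 and 50.96 against 49.95. In lists of 201 summits the split was not complete. The median rank percentile of distal sites in SLK-KO replicate 1 was then 44 against 52.5 for its promoter sites, so distal sites ranked worse in 2 of 3 SLK-KO libraries (55.5 against 48.75 and 55 against 49) and better in 3 of 3 WT libraries.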

How the results depend on the processing

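Among the alternatives for tests, 313 values kept their direction and their side of the threshold, 18 changed sign and 2 passed it. Tests between genotypes could give no p below 0.1, and sign-flip tests with a library left out none below 0.0625. Both values lie above the threshold. For these tests the side was therefore fixed in advance, and only the direction could change. For counts, 57 of 70 stayed within 1.5 times. The CACGTG difference between distal and promoter sites changed sign to -3.79 points over 5 kb from a coding TSS, -0.369 with a score of at least 5, -1.77 in equal lists, -2.58 within 50 bp and -0.0212 within 250 bp. That between distal sites with and without POL2 became 4.39 over 5 kb, 10.8 in equal MYC lists and 1.44 within 250 bp. It became 2.87 in equal POL2 lists and 3.41 over 1 kb from any TSS. Within 50 bp it was -10.03, past the threshold. The difference between distal MYC and distal POL2 sites also passed it there, though at 27.2 points it was smaller than the 36.7 of the main setting. Its exact sign-flip p stayed at 0.03125, and the adjusted value fell only because another test reached that p. The POL2 difference between genotypes became -11.3 with any POL2 library and -7.71 with equal POL2 lists. Over 1 kb from any TSS, the difference in the intergenic share became -8.50 and that in rank 1.72, the sites in at least 2 WT libraries numbered 14 and those in all 6 numbered 0, by the construction of that setting. Over 5 kb, at least 2 WT libraries held 16 sites. With a score of at least 5, 96 sites were shared by 2 or more SLK-KO libraries, and 33 in equal lists. The number in every SLK-KO and no WT library was 19 and 3. Under the alternatives only distal sites were counted, so these numbers do not compare them with all MYC sites. For the sign changes the cause was not tested.

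Leaving out 1 library, POL2 between genotypes ranged from -0.142 to 7.94 points (lowest without WT replicate 2), the intergenic share from -1.29 (without SLK-KO replicate 1; -0.970 without WT replicate 3) to 3.75, and the rank difference from -4.87 to 0.184 (highest without WT replicate 2). Sites in at least 2 WT libraries numbered 12 (without WT replicate 1) to 26, those in at least 2 SLK-KO libraries 86 (without SLK-KO replicate 2) to 158, and those in every SLK-KO and no WT library, with fewer libraries asked for, 38 to 74 (without SLK-KO replicate 3). With the replicate block the effects were the same by construction, with an exact p of 0.25 (the smallest 8 flips allow) for the number of distal sites (2.82), their share (7.55), CACGTG (-15.2) and non-coding TSS (-15.6), 0.75 for POL2 (3.12) and 1 for the intergenic share (0.954). The block could change no call, since 0.25 lies above the threshold. Depth is unknown, so a site missing from the short WT lists was not read as absent.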
